A study of Mus musculus with 8 samples.

Results

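The cytosolic ribosomal protein genes encode the proteins that, with ribosomal RNA, build the large (Rpl) and small (Rps) subunits of the ribosome outside mitochondria. They were followed in testes of Brwd1 mutant mice. Members were all genes with a probe set of a single gene symbol that reads Rpl or Rps followed by a digit, without the Rps6k kinases, plus Rplp0, Rplp1, Rplp2 and Rpsa. The rule found 51 of the 18194 genes that had such a probe set, through 107 of the 45101 probe sets of the array. For a gene with several, the probe set with the highest mean was taken. The 51 comprised 22 canonical genes of the large subunit, 21 of the small subunit, 6 paralogues (Rpl39l, Rps4l, Rpl22l1, Rpl7l1, Rps27l and Rpl3l), the binding protein gene Rps19bp1 and the pseudogene Rps15a-ps6. Of these, 48 passed the filter on dim values, alongside 13787 genes in all, and Rpl3l, Rps16 and Rps15a-ps6 did not. No probe set of the annotation table carried the symbol Rpl10l, so Rpl10l was not analysed here and only Rpl39l of the pair of well-known testis paralogues could be set against the rest.

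Whole testes came from 4 mutant mice, labelled Brwd1-/-, and 4 control mice, all 27 days old and untreated, with 1 Affymetrix array per mouse. The labels differ on the controls, with wild type in the titles and Brwd1+/- in the genotype entry, so that a mutant copy in the controls is possible. Wild type is used below, after the titles. The promoter or method behind the mutant allele is not given in the sources used here. The series' design text places germ cells at 27 days past meiosis and asks what differs in spermatids of the mutants.

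Values are intensities on a linear scale, scaled by the authors so that every array has the same trimmed mean, and the number of arrays limits their precision. Of the 5 probe sets of Brwd1, 0 passed the test in any fit, and the 4 kept ones differed by -0.28 to 0.43 on the log2 scale, so the targeted gene does not check the labels. The 9 spermatid markers were all lower in mutants: their summed intensity was 3856 to 26950 in mutants and 73751 to 134513 in wild type. Summed meiotic prophase markers were 69413 to 73208 in mutants and 61116 to 65153 in wild type. Only 3 of the 10 were higher in mutants, with a mean log2 difference of 0.014, so the sums do not stand for each marker. In both genotypes many genes separated replicates 3 and 4 from replicates 1 and 2, and the labels name no batch. Besides a fit with no block, 1 fit used the replicate number as a block and 1 used the sets of replicates (the split block).

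Cells usually make the proteins of both ribosomal subunits in matched amounts, and mRNAs of this family are known for a run of pyrimidines at their start, through which growth signals set their translation. Several canonical genes, among them Rpl39, Rps4x and Rpl10, lie on the X chromosome, which is silenced in spermatocytes during meiosis. Rpl39l, Rpl10l and Rps4l are autosomal paralogues of X-linked genes, and Rpl39l and Rpl10l are known for their use in male germ cells, where the proteins they encode take their partners' place in the ribosome.

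No ribosomal protein gene passed the test between mutant and wild-type testes. In the fit across 13787 genes (limma, Benjamini-Hochberg adjusted p under 0.05), 0 of 48 genes were called without a block, against 0.283% of all genes, 0 with the replicate block, against 3.45%, and 0 with the split block, against 2.63%. At an unadjusted limma p under 0.05, 0 of 48 passed without a block, against 9.56% of all genes. The same count was 4 of 48, 8.33%, with the replicate block, against 17.1% of all genes, and 4 of 48 with the split block, against 17.6%. The first 4 were Rps3, Rps27, Rplp2 and Rpl41, and the others Rps3, Rpl4, Rplp2 and Rpl41. The lowest adjusted p among the 48 was 0.629 with no block, 0.180 in the replicate block fit and 0.150 in the split block fit. The 4 mutant values lay clear of the 4 wild-type values in 0 of 48 genes, while 2.53% of all genes were higher in mutants without overlap and 5.26% lower.

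At the representing probe sets the differences were small as well as uncalled. The log2 difference, mutant minus wild type, ran from -0.09 for Rpl22l1 to 0.52 for Rps27, with a median of 0.080 beside a median of 0.065 over all genes. Of the 48 genes, 46 (95.8%) differed by less than 0.25 on the log2 scale, against 71.5% of all genes, and the exceptions were Rps27 and Rpl14. For the 38 genes with a mean intensity of at least 5000, the largest difference was 0.22, for Rps3. The 95% interval reached 0.32 to either side of the difference at the median gene, and 0.16 with the split block. With the split block the interval stayed within 1 log2 unit of 0 for 47 of 48 genes, all but Rps27, and within 0.5 for 43, all but Rpl12, Rpl14, Rpl39, Rps19bp1 and Rps27. Without a block it stayed within 1 for 45, all but Rps27, Rps4x and Rpl27a. The share within 0.25 is a description, with no test. Most members were bright beside array medians of 91 to 124, and they were not compared with genes of like intensity.

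As deposited, 42 of 48 differences were positive, against 62.8% of all genes, and 28 stood above the median of all genes. After quantile normalization 32 were positive (60.5% of all genes) with a median of 0.039 (0.052 over all genes), and 19 stood above the median of all genes. After median centring 36 were positive (55.0% of all genes) with a median of 0.039 (0.024 over all genes), and 28 stood above the median of all genes. With array weights the median turned to -0.023, and without mutant replicate 1 it was 0.035, so no direction is given to the set. Markers of other cells were higher in mutants in the same mice: all 9 kept spermatogonia markers (mean log2 difference 0.29, sums of 6799.5 to 9056 in mutants and 5931 to 6807 in wild type), all 8 Sertoli markers (0.16, 34893 to 48908 and 32107 to 39132), all 5 Leydig markers (0.20, 16329.9 to 23542 and 12848 to 21332) and all 7 macrophage markers (0.26, 9679.6 to 14894 and 8104 to 11413). Endothelial markers were higher for 6 of 7 (0.20), but peritubular markers for only 3 of 5 (-0.050), so the rise did not hold for every cell type. The part of these cells in the differences of the ribosomal protein genes was not tested. The large subunit genes had a median of 0.11 and a range of -0.07 to 0.39, the small subunit genes a median of 0.07 and a range of -0.04 to 0.52, and the 5 paralogues a median of 0.05 and a range of -0.09 to 0.17. Within replicates 3 and 4 the median was 0.07 (0.03 over all genes), and within replicates 1 and 2 it was 0.12 (0.09 over all genes). In bulk tissue, fewer cells of a type and less RNA per cell cannot be told apart, and a common scaling of each array removes any change in total RNA.

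**Figure D1:**
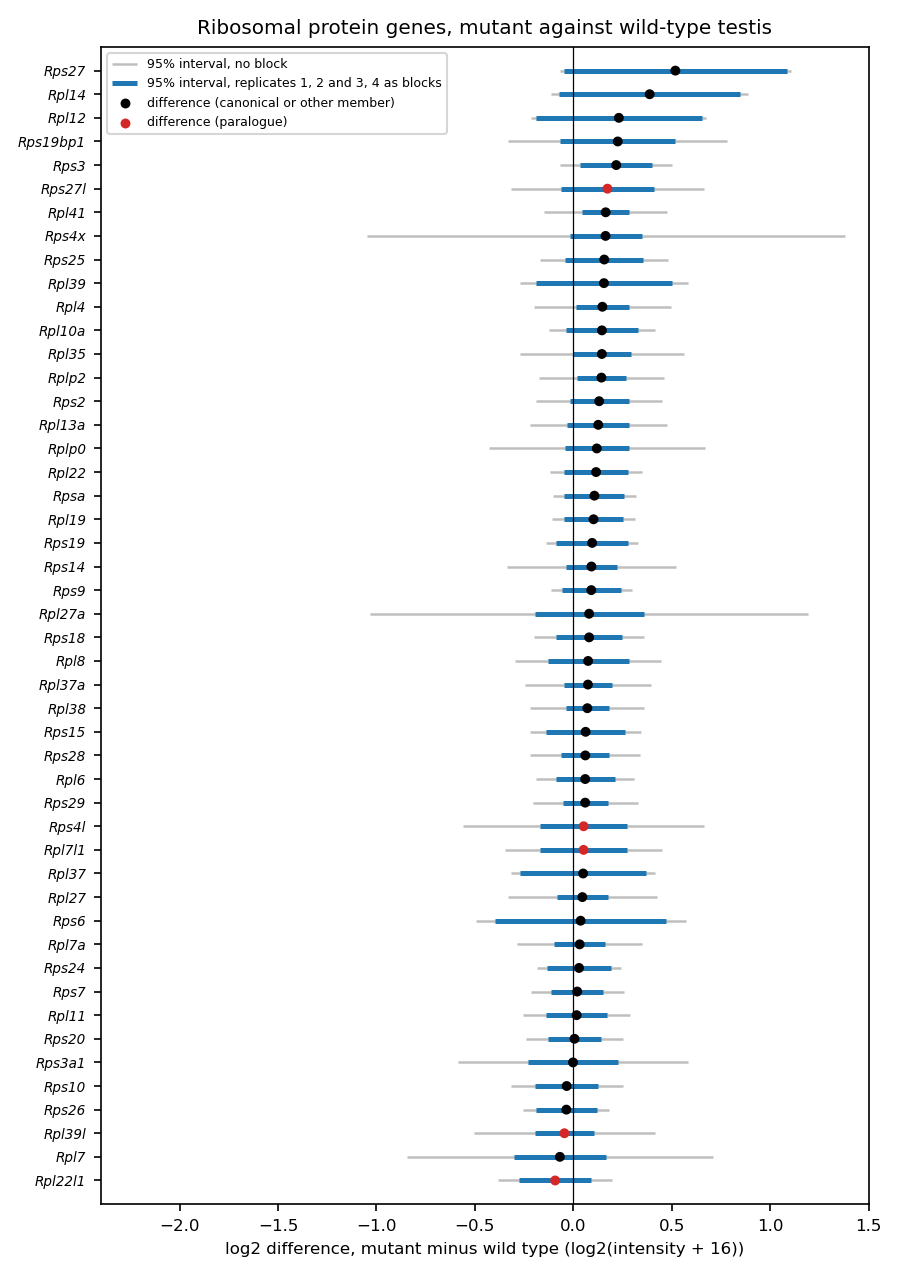
Difference of each of the 48 ribosomal protein genes between mutant and wild-type testes, as mutant minus wild type in log2(intensity + 16). Points give the difference, thin grey lines the 95% interval without a block and thick blue lines the 95% interval with the split block (4 mice per genotype); 46 of 48 points lie within 0.25 of 0, and Rps27 and Rpl14 do not.

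Among genes of the small subunit, Rps3, which sits at the entry of the mRNA channel, read 12503, 11267, 9491 and 10026 in mutant replicates 1 to 4, against 10856, 8844, 9225 and 8267 in wild-type replicates 1 to 4. The groups overlapped, although all 4 mutants stood above wild-type replicates 2, 3 and 4. Rps3 averaged 10821 ± 1345 in mutants and 9298 ± 1111 in wild type (SD, n = 4 each), and the log2 difference was 0.22 ± 0.13 (SE; limma, adjusted p = 0.733 with no block and 0.18 in the replicate block fit). Rps27, a small subunit protein gene with the highest difference of the set, read 319, 484, 477 and 574 in mutant replicates 1 to 4, against 273, 505, 271 and 251 in wild-type replicates 1 to 4. Wild-type replicate 2 stood inside the mutant range, and the other 3 wild-type mice stood below all mutants. The log2 difference of Rps27 was 0.52 ± 0.26 (SE; limma, adjusted p = 0.629), made up of 0.96 within replicates 3 and 4 and 0.075 within replicates 1 and 2. Rps10 and Rps26, small subunit genes, had the lowest differences among canonical small subunit genes, -0.034 and -0.036.

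Among genes of the large subunit, the differences farthest from 0 belonged to dim probe sets. Rpl14 read 161, 135, 109 and 156 in mutant replicates 1 to 4, against 152, 87.3, 102 and 79.8 in wild-type replicates 1 to 4. The groups overlapped, and its log2 difference was 0.39 ± 0.22 (SE; limma, adjusted p = 0.726). Rpl12, which lies at the base of the stalk, had a difference of 0.23 at intensities of 248 ± 53.9 in mutants and 207 ± 33.5 in wild type (SD, n = 4 each). Of the stalk genes, whose proteins recruit translation factors, Rplp0 had a difference of 0.12 and Rplp2 a difference of 0.14, and Rplp1 was measured only by probe sets that list several symbols. Rplp2 read 22642, 20315, 16572 and 16618 in mutant replicates 1 to 4, against 19846, 18388, 15809.9 and 14786 in wild-type replicates 1 to 4. Each mutant stood above the wild-type mouse of the same replicate number, while the groups overlapped, and Rplp2 was not called (limma, adjusted p = 0.934 with no block, 0.21 by replicate number and 0.216 by the split). Rps19bp1, which encodes a protein that binds Rps19 and is no part of the mature ribosome, had a difference of 0.23.

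The other probe sets of these genes gave a wider range of differences than the representing ones. Over the 94 kept probe sets of the members, each tested on its own, 0 were called without a block (0.111% of the 27022 probe sets kept), 1 with the replicate block (1.06%, against 2.33%) and 1 with the split block (1.06%, against 1.77%; limma). At an unadjusted limma p under 0.05, 2 passed without a block (7.41% of all probe sets), 8 with the replicate block (14.3%) and 7 with the split block (14.5%). All of these shares of the members lay under those of all probe sets, but called counts of 0 and 1 are too small to tell apart from them. Several genes hold more than 1 of the 94 probe sets, so these are not independent. Mutants were higher without overlap at 1 of the 94, against 2.27% of all probe sets, and lower at 0, against 3.80%.

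The 46 kept probe sets that did not represent a gene differed by -0.63 to 0.59 on the log2 scale. The highest belonged to Rpl37a, a large subunit gene, and read 1287, 1048, 957 and 876 in mutant replicates 1 to 4, against 838, 448, 716 and 786 in wild-type replicates 1 to 4. Its mutants lay above all wild-type mice, and it was not called (limma, adjusted p = 0.491 with no block and 0.152 by replicate number), while the 2 brighter probe sets of Rpl37a differed by 0.074 and -0.030. The lowest belonged to Rpl7 and read 1506, 1468, 7083 and 6774 in mutant replicates 1 to 4, against 1957, 3629, 9214 and 9264 in wild-type replicates 1 to 4, and the 2 others of Rpl7 differed by -0.068 and -0.13. Those of Rpl37a and Rpl41, which encodes a very short peptide of the ribosome, were named after their values were seen. The probe set called with either block was 1 of 4 for Rpl41, with a log2 difference of 0.33 (limma, adjusted p = 0.432 with no block, 0.0457 blocked by replicate number and 0.0331 blocked by the split). It read 13169, 13452, 11462 and 12046 in mutant replicates 1 to 4, against 10566, 11535, 9117 and 8892 in wild-type replicates 1 to 4, with mutant replicate 3 below wild-type replicate 2. In the same fits the brighter, representing probe set of Rpl41 differed by 0.16 and missed the threshold (limma, adjusted p = 0.201 blocked by the split). The suffix of these 3 probe sets marks probes that can match several transcripts, as did those of 14 of the 48 representing probe sets, and copies or pseudogenes could add to their signal.

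Rpl39l, the germ cell paralogue of Rpl39, differed between mutant and wild-type testes by less than the spread between mice. Rpl39l read 15009, 15194, 9770.0 and 9886 in mutant replicates 1 to 4, against 14948, 14638, 11633 and 9820.0 in wild-type replicates 1 to 4. In both genotypes replicates 3 and 4 stood below replicates 1 and 2, and the genotypes overlapped. It averaged 12465 ± 3046 in mutants and 12760.0 ± 2465 in wild type (SD, n = 4 each), with a log2 difference of -0.046 ± 0.20 (SE) and a 95% interval of -0.50 to 0.41, or -0.20 to 0.10 with the split block (limma, adjusted p = 0.997 without a block and 0.759 with it). The spermatid markers differed by -3.06 on the log2 scale on average over the same mice, and the interval of Rpl39l did not reach 1 log2 unit in either direction. Rpl39, its X-linked partner at the exit tunnel of the large subunit, read 414, 313, 372 and 372 in mutant replicates 1 to 4, against 303, 244, 369 and 418 in wild-type replicates 1 to 4. Its values overlapped between genotypes, with a log2 difference of 0.16 and a 95% interval of -0.27 to 0.58 (limma, adjusted p = 0.962).

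Promoters are shown for this pair and for Rps4x, the genes the comparisons of paralogues turn on, as RefSeq gives them for assembly GRCm38.p6: the 250 bases before the annotated start and the first 50 of the transcript, 5′ to 3′ on the gene's strand. The array files name no build. Capitals mark motifs found on either strand: in Rpl39l a pair of ETS cores (CGGAAG), in Rpl39 an ETS core (as CTTCCG on the other strand) and a TATA box (TATAAA), and in Rps4x a pair of GC boxes (GGGCGG, 1 of them as CCGCCC). None of these matches overlap each other.
Rpl39l: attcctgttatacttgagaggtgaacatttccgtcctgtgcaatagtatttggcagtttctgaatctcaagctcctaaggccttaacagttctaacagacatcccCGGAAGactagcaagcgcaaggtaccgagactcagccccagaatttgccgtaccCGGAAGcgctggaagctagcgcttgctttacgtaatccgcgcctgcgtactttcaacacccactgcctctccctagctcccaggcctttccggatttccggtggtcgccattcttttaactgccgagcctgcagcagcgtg
Rpl39: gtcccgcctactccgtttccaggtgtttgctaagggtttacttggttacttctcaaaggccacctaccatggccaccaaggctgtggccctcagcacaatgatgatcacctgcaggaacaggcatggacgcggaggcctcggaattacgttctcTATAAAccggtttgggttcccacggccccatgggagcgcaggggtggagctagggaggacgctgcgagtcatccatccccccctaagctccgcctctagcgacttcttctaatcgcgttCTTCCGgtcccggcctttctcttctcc
Rps4x: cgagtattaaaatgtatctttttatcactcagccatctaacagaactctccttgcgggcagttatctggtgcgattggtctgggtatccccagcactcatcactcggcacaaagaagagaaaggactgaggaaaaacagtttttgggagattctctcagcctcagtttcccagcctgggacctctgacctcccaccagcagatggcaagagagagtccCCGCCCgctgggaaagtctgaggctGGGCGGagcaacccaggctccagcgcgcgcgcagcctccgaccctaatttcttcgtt
The windows lie at chr16:10169978-10170277 (plus strand) for Rpl39l, chrX:37085173-37085472 (minus strand) for Rpl39 and chrX:102189342-102189641 (minus strand) for Rps4x. They hold 17, 17 and 13 CpG dinucleotides. Each window spans a gene's start, so it covers upstream sequence and the beginning of the first exon.

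Of the 51 members 44 had a promoter in the RefSeq table, and they shared features that the choice of members did not use. A run of at least 10 pyrimidines within 50 bases of the start was present in 26 of 44 (59.1%), against 18.0% of 27025 promoters of the same length, and a start at C followed by at least 4 pyrimidines in 8 of 44 (18.2%), against 2.49%. The last count holds for the annotated starts, and how close these lie to the starts used in testis was not tested. The ETS core CGGAAG was present on either strand in 31 of 44 (70.5%), against 17.2% of all promoters. The median number of CpG dinucleotides was 22.5, against 7 over all promoters. The GC box GGGCGG was found in 25 (56.8%, against 35.9%), the YY1 motif AAGATGGC in 3 (6.82%, against 2.88%), the cyclic AMP motif TGACGTCA in 2 (4.55%, against 1.88%) and TATAAA in 5 (11.4%, against 14.2%). These matches describe letters in a window, and binding was not measured.

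Rps4l and Rps4x differed most of the 5 pairs measured, between replicates and not between genotypes. Rps4x, an X-linked gene of the small subunit, read 3045, 2802, 8463 and 9596 in mutant replicates 1 to 4, against 2887, 2524, 7501 and 8042 in wild-type replicates 1 to 4. Rps4l, its autosomal paralogue, read 8733, 9288, 4556 and 5007 in mutant replicates 1 to 4, against 8242, 7105, 5516 and 4956 in wild-type replicates 1 to 4. In both genotypes Rps4x was higher and Rps4l lower in replicates 3 and 4 than in replicates 1 and 2, with no overlap, while the genotypes overlapped for both genes. Between genotypes Rps4x differed by 0.16 (95% interval -1.05 to 1.38, or -0.019 to 0.35 with the split block) and Rps4l by 0.052 (-0.56 to 0.66), with adjusted p of 0.997 and 0.997 without a block (limma). Rpl3l, the muscle paralogue of Rpl3, was dim, at 27.2, 17.3, 112 and 130.3 in mutants and 84.9, 5.50, 19.0 and 102 in wild type, and was not tested.

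Whether a paralogue moved differently from its canonical gene was tested as the log2 difference between them within each mouse, in 5 pairs. Mutant minus wild type, this was -0.20 for Rpl39l and Rpl39 (two-sided exact permutation test, p = 0.6), with an SD between mice of 0.42 in mutants and 0.60 in wild type (n = 4 each). It was -0.11 for Rps4l and Rps4x (exact p = 0.771), 0.12 for Rpl7l1 and Rpl7 (exact p = 0.8), -0.21 for Rpl22l1 and Rpl22 (exact p = 0.229) and -0.35 for Rps27l and Rps27 (exact p = 0.457). Adjusted over the 5 pairs all stood at 0.8 (exact permutation, Benjamini-Hochberg), and the smallest p that 4 mice against 4 allow is 0.0286. The mice of both genotypes overlapped in every pair. Rpl39 and Rps27 were each measured by 1 dim probe set, with mean intensities of 351 and 394, so the pairs that hold them rest on weak values. With a block the lowest p belonged to Rpl22l1: its difference from Rpl22 was lower in the mutant of all 4 same-numbered pairs, which gave an exact permutation p of 0.125 by flips within pairs and 0.0556 within the sets of replicates. These are the smallest p those designs allow, so neither could pass 0.05, and over the 5 pairs they became 0.625 and 0.278 (exact permutation, Benjamini-Hochberg). Pairs of Rpl10l, Rpl3l and Rpl36al with their canonical genes were not analysed here, since a partner was dim or had no probe set of its own symbol.

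The other paralogues overlapped between genotypes as well. Rps27l, a stress-inducible paralogue of Rps27, read 13687, 9707, 7833 and 7662 in mutant replicates 1 to 4, against 10168, 9775, 7599 and 6527 in wild-type replicates 1 to 4. Replicates 3 and 4 were below replicates 1 and 2 in both genotypes, and mutant replicate 1 was the highest mouse. Rpl22l1 read 5767, 4642, 6073 and 6412 in mutant replicates 1 to 4, against 5459, 5864, 6529 and 6449 in wild-type replicates 1 to 4, and its lowest mouse was mutant replicate 2. Rpl22, its canonical gene of the large subunit, read 14001, 11562, 11227 and 11754 in mutant replicates 1 to 4, against 12312, 10951, 10939 and 10513 in wild-type replicates 1 to 4. Rpl7l1, a ribosome biogenesis factor related to Rpl7, read 1677, 1523, 1246 and 1133 in mutant replicates 1 to 4, against 1626, 1402, 1109.7 and 1232 in wild-type replicates 1 to 4. At this probe set replicates 3 and 4 were the lower ones in both genotypes, with a log2 difference of -0.39, while its other probe sets gave 0.0050 and -0.20. Between genotypes the log2 differences of these 4 genes were 0.17 (95% interval -0.32 to 0.66), -0.092 (-0.38 to 0.20), 0.12 (-0.12 to 0.35) and 0.052 (-0.35 to 0.45).

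**Figure D2:**
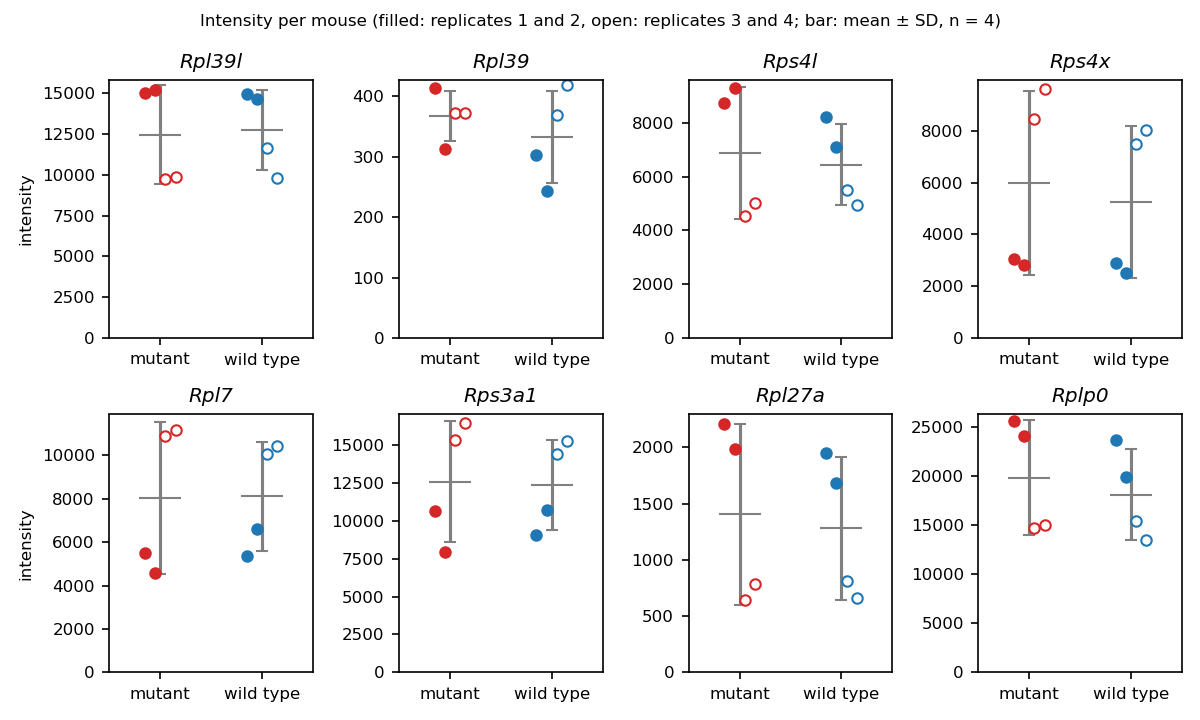
Intensity of 8 ribosomal protein genes in each mouse, on a linear axis from 0, with mutants left of wild type; filled points are replicates 1 and 2, open points replicates 3 and 4, and bars the mean ± SD (n = 4). Genotypes overlap for each gene, and open and filled points separate in all but Rpl39.

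Replicates 3 and 4 stood apart from replicates 1 and 2 in more of these genes than the genotypes did. The split was seen in the data, so its values carry no test. Of the 48 genes as deposited, 25 (52.1%) were lower in replicates 3 and 4 with no overlap, against 18.4% of all genes, and 5 (10.4%) were higher, against 19.1%. The 5 were Rpl4, Rpl7, Rpl22l1, Rps3a1 and Rps4x. The median difference was -0.23 on the log2 scale for the members and 0.014 for all genes, and 46 of 48 genes had the same sign in mutants and wild type. The large subunit genes had a median of -0.27, the small subunit genes -0.19 and the 5 paralogues -0.54.

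The genes did not split as a block, and the ends of the range held on all scalings. Rps4x differed by 1.57 as deposited (1.70 after quantile normalization and 1.33 after median centring), and by 1.62 within mutants and 1.52 within wild type. Rpl7, a large subunit gene, read 10902 and 11181 in mutants and 10063 and 10408 in wild type in replicates 3 and 4, against 5482 and 4579 in mutants and 5356 and 6601 in wild type in replicates 1 and 2. That is a difference of 0.96, and its other probe sets gave 1.09 and 2.00. Rps3a1, a small subunit gene, differed by 0.69 (0.90 and 0.45 on the other scalings). At the other end, Rpl27a, a large subunit gene, read 646 and 786 in mutants and 817 and 664 in wild type in replicates 3 and 4, against 2207 and 1990.2 in mutants and 1952 and 1687 in wild type in replicates 1 and 2. Its difference was -1.41 (-1.45 and -1.65). Rps4l differed by -0.73 (-0.58 and -0.97), Rplp0 by -0.67 (-0.43 and -0.91), Rpl39l by -0.54 (-0.34 and -0.79) and Rps27l by -0.54 (-0.35 and -0.78). Rps4l minus Rps4x within each mouse differed by -2.30 between these replicates (-2.53 in mutants and -2.07 in wild type), and Rpl39l minus Rpl39 by -0.82 (-0.67 and -0.97).

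Bright genes also differed in direction. Rps3a1 read 15309 and 16431 in mutants and 14417 and 15245 in wild type in replicates 3 and 4, against 10663 and 7915 in mutants and 9073 and 10698 in wild type in replicates 1 and 2. Rpl4, a large subunit gene near the exit tunnel, read 15701 and 15822 in mutants and 13358 and 12917 in wild type in replicates 3 and 4, against 11106 and 11217 in mutants and 10752 and 11080.1 in wild type in replicates 1 and 2. Both were higher in all 4 mice of replicates 3 and 4 as deposited. After median centring the replicate difference of Rpl4 was 0.14 with overlap, and that of Rps3a1 was 0.45 without overlap. Rplp0, the stalk scaffold, read 14713 and 15032 in mutants and 15416 and 13454 in wild type in replicates 3 and 4, against 25654 and 24109.9 in mutants and 23723 and 19977 in wild type in replicates 1 and 2, lower in all 4. Rpl4 differed between genotypes by 0.15 (95% interval -0.20 to 0.49, or 0.011 to 0.28 with the split block) and was not called (limma, adjusted p = 0.246 blocked by the split). Of the 38 genes with a mean intensity of at least 5000, 30 were lower in replicates 3 and 4 as deposited, 21 after quantile normalization and 34 after median centring.

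**Figure D3:**
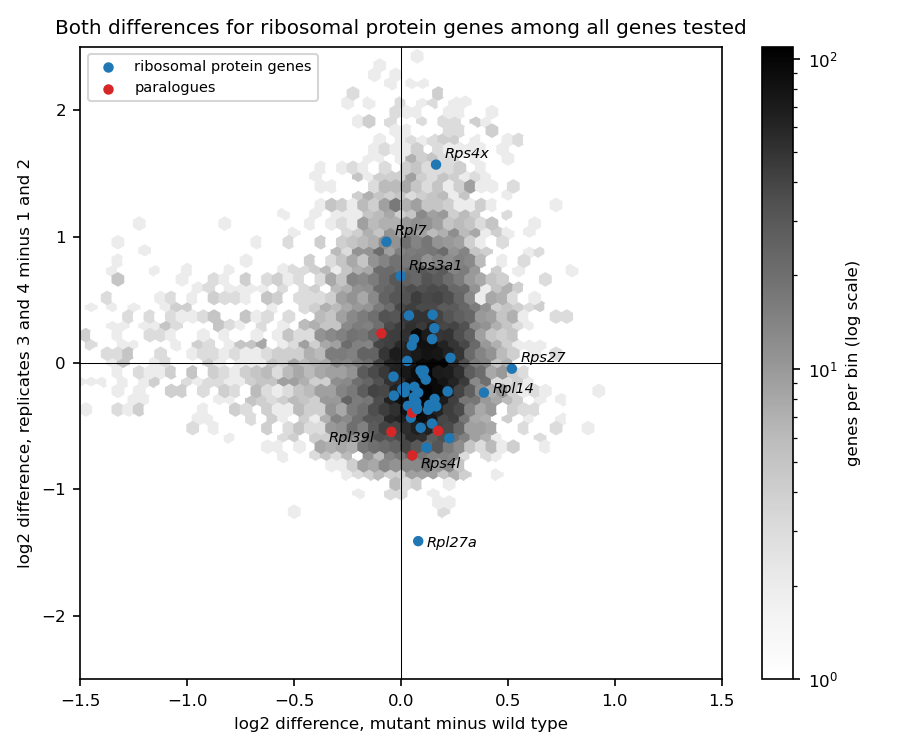
Each of the 48 genes by its genotype difference (mutant minus wild type, horizontal axis) and its replicate difference (replicates 3 and 4 minus 1 and 2, vertical axis), both in log2(intensity + 16), over grey bins that count all genes tested, with paralogues in red. For the 48 the genotype differences run from -0.09 to 0.52 and their replicate differences from -1.41 to 1.57.

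How many members were lower in replicates 3 and 4 depended on the scaling. As deposited 36 of 48 were lower, 28 after quantile normalization and 42 after median centring. The median of the members was -0.23, -0.033 and -0.47 on these scalings, and that of all genes 0.014, -0.083 and -0.23. Relative to all genes the members' median was -0.25 as deposited, 0.050 after quantile normalization and -0.25 after median centring. Without overlap, 25, 12 and 35 of the 48 members were lower (18.4%, 22.0% and 31.3% of all genes), so after quantile normalization the members lay near the share of all genes. Higher without overlap were 5, 7 and 3 members (19.1%, 16.4% and 12.1% of all genes). Quantile normalization, which gives every array the same distribution, also removes differences in its bright end: the 99th percentile was 9163 to 9224 in mutant replicates 3 and 4 and 10513 to 10737 in mutant replicates 1 and 2, and 8667 to 9469 in wild-type replicates 3 and 4 and 10265 to 10347 in wild-type replicates 1 and 2. Rpl22l1 kept its sign after quantile normalization (0.37) but had -0.01 after median centring, and Rpl22, at -0.13 as deposited, had 0.06 and -0.37. Other cell types split with the replicates too, most of all the epididymis, although the samples are labelled testis. Of 6 kept epididymis markers 5 were higher in replicates 3 and 4, with a mean log2 difference of 5.43. Their sums were 45482 to 50543 in replicates 3 and 4, against 11531 to 12691 in replicates 1 and 2. All 5 peritubular markers were higher (mean log2 difference 0.66), and 0 of 8 Sertoli (-0.34), 0 of 5 Leydig (-0.64) and 0 of 7 macrophage markers (-0.44) were. Germ cell markers were mixed, with 6 of 9 spermatid, 7 of 10 meiotic prophase and 3 of 9 spermatogonia markers higher in replicates 3 and 4. Endothelial markers were higher for 5 of 7. The part of these cells in the split of the ribosomal protein genes was not tested.

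**Figure D4:**
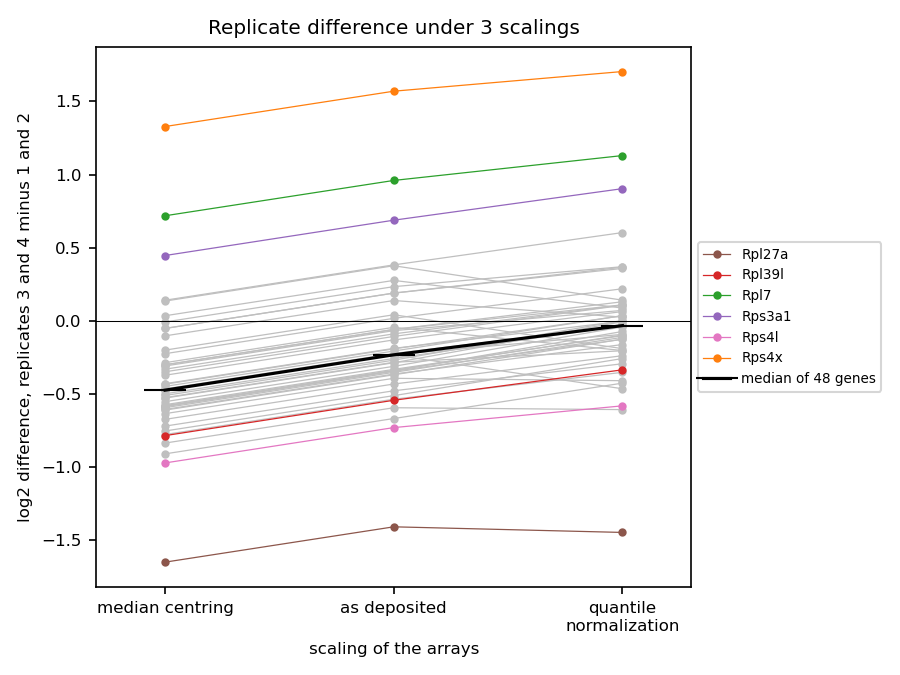
Log2 difference between replicates 3 and 4 and replicates 1 and 2 (vertical axis) of each of the 48 genes on 3 scalings of the arrays, with a line per gene, 6 genes in colour and the median in black. The median of the members was -0.23 as deposited, -0.033 after quantile normalization and -0.47 after median centring.

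Other genes of translation gave 0 calls without a block, at 0.283% of all genes (limma). The lists were of initiation factors (40 tested, median log2 difference -0.0031), elongation and release factors (15, -0.010), ribosome biogenesis factors (67, 0.038), RNA polymerase I and its factors (14, 0.18) and mitochondrial ribosomal proteins (76, 0.059), and of the ribosomal proteins with other names 1, Fau, was tested (0.10). At an unadjusted limma p under 0.05, 1 initiation factor, 2 ribosome biogenesis factors and 3 mitochondrial ribosomal proteins passed, each a smaller share than the 9.56% of all genes. With the replicate block 1 gene was called, Efl1 among 67 (3.45% of all genes were called), and with the split block 1, Mrpl27 among 76 (2.63% of all genes); these shares are no higher than those of all genes. Efl1, which releases the anti-association factor from the new large subunit, read 472, 811, 871 and 909.7 in mutant replicates 1 to 4, against 1279.8, 1402, 1706 and 1165 in wild-type replicates 1 to 4, with no overlap between genotypes. It averaged 766 ± 200.1 in mutants and 1388 ± 233 in wild type (SD, n = 4 each) and fell by 0.87 on the log2 scale in mutants with the replicate block (limma, adjusted p = 0.04), but its adjusted p was 0.143 without a block and 0.0516 with the split block. Mrpl27, of the large mitochondrial subunit, read 2346, 2106, 2194 and 1864 in mutant replicates 1 to 4, against 1518, 1482, 1502 and 1546 in wild-type replicates 1 to 4, with no overlap. It averaged 2128 ± 202 in mutants and 1512 ± 27.0 in wild type (SD, n = 4 each), a log2 difference of 0.48 (limma, adjusted p = 0.0397 blocked by the split, 0.112 with no block and 0.0565 with the replicate block).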

How the data were processed

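RNA of whole testis from 8 mice was hybridised to Affymetrix arrays. The deposited values are linear intensities that GCOS made, as the submitters' processing notes say, and each array has an equal mean once 2% is trimmed from either end. Its version is not given in the sources used here, nor detection calls, so the height of a dim probe set above background is unknown.

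Values were taken as log2(intensity + 16), on which changes of dim genes come out too small. Probe sets with a mean log2 above the 40th percentile were kept (27022), control probe sets left out, and 1 probe set per gene was used, the one with the highest mean. The genotype test was limma's (lmFit, eBayes with trend, two-sided; version 3.58.1 under R 4.3.3), adjusted by Benjamini-Hochberg over all 13787 genes, threshold 0.05; it was tested on simulated data. P-values rest on the spread between mice of a genotype, and in a fit with a block on the spread left after the block. In limma that spread is estimated with help from the other genes. Members, lists and alternatives were chosen with earlier results of these data known. Genes named were the paralogues and their partners, the extremes of each difference (6 each way), X-linked and stalk genes, called genes and up to 4 of each other list by smallest p.

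Same-numbered mice deviated together from their genotype means (r = 0.515, 0.677, 0.636 and 0.619). The split between the sets of replicates, shared by both genotypes, would by itself make them do so. These values therefore do not show pairing by number. Only 3 of 8 mice were closest to their own number, 0 of them in replicates 3 and 4. The replicate block uses the numbers in the sample titles, which state no pairing of mice. The split block has its source in the data, and pairing beyond the split was not tested. Figures were drawn with matplotlib 3.10.9.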

Additional observations from a re-analysis of the deposited data

Results flagged for a closer look

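A mouse far from the other 3 of its genotype was found in 2 of 46 groups, over 23 named genes, by Dixon's test at the 95% level on log2 values. By chance it marks about 1 in 20 groups of mice that share 1 spread. Many named genes separated replicates 3 and 4 from 1 and 2, where a single mouse can hardly be marked, so that rate is only a guide. Rps26, a small subunit gene, read 11741 in wild-type replicate 4, below the other wild-type mice at 13522 to 13913. Rps27 read 505 in wild-type replicate 2, above the other wild-type mice at 251 to 273.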

How the results depend on the processing

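The count of ribosomal protein genes called between genotypes was 0 in every alternative for genes: replicate block, split block, quantile normalization, median centring, other pseudocounts, filters and probe choices, array weights and each mouse left out (limma). At single probe sets, a test added after seeing the data, it was 1 (Rpl41) blocked by replicate number and 1 blocked by the split. The replicate block changed no call among the 48 genes, and gave an exact permutation p of 0.25 for Rpl39l against Rpl39 and 0.625 for Rps4l against Rps4x, in a design of 4 pairs that allows none under 0.125. The median genotype difference was -0.023 with array weights and 0.035 (without mutant replicate 1) to 0.13 (without mutant replicate 3) with a mouse left out. Among named genes, 66 of 703 genotype differences under the alternatives had the other sign, 0 of them called, as had 14 of 85 of the pairs. The replicate split had a median of -0.033 after quantile normalization and -0.47 after median centring. Ribosome biogenesis gave 1 call with the replicate block, 1 with array weights and, with the split block, 0 to 1 with a mouse left out (1 without mutant replicate 1 or wild-type replicate 4). Mitochondrial ribosomal proteins gave 1 with the split block, 1 with array weights and 0 to 2 with a mouse left out (2 without mutant replicate 1). Elongation and release factors gave 1 with array weights. The cause was not tested.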

Other observations

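Many ribosomal protein symbols of the array are carried by probe sets that list several genes, which the choice of members leaves out. There were 110 such probe sets, of which 101 were kept, and 31 ribosomal protein symbols, among them Rpl3, Rpl10 and Rplp1, were listed only on them. Of the 101, 0 were called between genotypes without a block and 0 with either block (limma), with 2 at an unadjusted p under 0.05 without a block and 8 with each block, where 7.41%, 14.3% (replicate block) and 14.5% (split block) of the 27022 probe sets kept passed. Their median log2 difference, mutant minus wild type, was 0.08, with a range of -0.28 to 0.48. Between replicates 3 and 4 and replicates 1 and 2 their median was -0.12, with a range of -0.68 to 1.31, and 61 of 101 were lower. A value of such a probe set belongs to no single gene.

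Probe sets of 1 gene did not always move together between the replicates. The 3 probe sets of Rpl22 had log2 differences of -0.66, 0.61 and -0.13 between replicates 3 and 4 and replicates 1 and 2. Those of Rpl41 had differences between genotypes of 0.16, 0.33, 0.29 and 0.40, all positive.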
